A study of Mus musculus with 4 samples.

Results

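The genes described here are the replication-dependent histone genes of the mouse, which make the bulk of the histone protein that packs newly copied DNA. They were chosen by name from RefSeq's mouse genes (assembly GRCm38.p6), as protein-coding genes with a clustered histone symbol in the current or the older nomenclature. This gave 67 of 21887 protein-coding genes, of which 63 matched by their current symbol and 4 (H4f16, H2bu2, H2aw and H4bc24) only by an older one. The count was 54 on chromosome 13, 10 on chromosome 3, 2 on chromosome 11 and 1 on chromosome 6. By protein they comprised 6 genes of the linker histone H1, 18 of H2A, 18 of H2B, 12 of H3 and 13 of H4. The table's symbol H4bc24 stands for a gene with the older name Hist1h2br, and it was placed with H2B.

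ATAC-seq, whose transposase cuts and tags DNA that is not shielded, was used to find accessible chromatin in hair follicle stem cells sorted from back skin of female mice at postnatal day 30. The sort took cells that carried a histone H2B-GFP reporter, lacked Sca-1 and displayed CD34 and CD49f. Knockout mice carried K14-H2BGFP, K14Cre and Foxc1 fl/fl, and control mice carried K14-H2BGFP and Foxc1 fl/fl, so floxed alleles and reporter were common to both. K14 is the keratin 14 promoter, active in basal epithelial cells. Each of the 2 genotypes was 1 library, sequenced in 2 runs. All 4 runs share a single list of 74777 regions (peaks) that has mm10 positions but no score, depth or sample for any of them, so genotypes could not be compared and the depth behind a peak is unknown. What follows are therefore counts and widths within 1 list, without a test over samples. Intervals on shares are exact (Clopper-Pearson) 95% intervals and cover counting error only. They treat genes as independent, which genes that share a peak are not.

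Replication-dependent histone genes are short and mostly without introns, and are transcribed chiefly while a cell copies its DNA. Most of their messages end in a stem-loop bound by the protein SLBP instead of a poly(A) tail. The factor NPAT, switched on by cyclin E and CDK2, drives their transcription in nuclear bodies that form at the gene clusters. H2A, H2B, H3 and H4 form the nucleosome core, and H1 binds the linker DNA between cores. Stem cells of the hair follicle bulge are known for long periods without division. Among the chromosome 13 genes, H1f6 (H1t), H2ac1 (TH2A) and H2bc1 (TH2B) are the variants known from the testis.

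Promoter sequences are shown first for these 3 testis genes and for a somatic counterpart of each, because the sets differed in accessibility. They run from 250 bases before the annotated start site to 50 bases from it onward, 5′ to 3′ on the coding strand, from RefSeq (GRCm38.p6). Capitals mark 4 searched motifs on either strand. The TATA box was searched as TATAAA. The box named CCAAT was searched by those letters. The octamer, known as the site of the factor OCT1, was searched as ATTTGCAT. The core of the site of HINFP, a factor of H4 genes, was searched as GTCCGC. No motif contains another of the 4. The testis promoters lie at chr13:23695561-23695860 (plus strand), chr13:23934107-23934406 (minus strand) and chr13:23934187-23934486 (plus strand).
H1f6: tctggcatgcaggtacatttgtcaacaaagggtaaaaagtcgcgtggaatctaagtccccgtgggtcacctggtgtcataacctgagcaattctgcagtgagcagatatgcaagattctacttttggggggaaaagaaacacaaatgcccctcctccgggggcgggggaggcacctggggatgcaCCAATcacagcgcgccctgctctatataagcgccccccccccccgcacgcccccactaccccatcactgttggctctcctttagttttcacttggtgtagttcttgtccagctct
H2bc1: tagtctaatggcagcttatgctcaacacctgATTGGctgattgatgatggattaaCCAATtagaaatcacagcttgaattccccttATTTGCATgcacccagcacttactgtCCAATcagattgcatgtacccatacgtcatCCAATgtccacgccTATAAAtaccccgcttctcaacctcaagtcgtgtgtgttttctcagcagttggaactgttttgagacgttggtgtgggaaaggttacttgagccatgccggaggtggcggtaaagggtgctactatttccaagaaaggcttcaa
H2ac1: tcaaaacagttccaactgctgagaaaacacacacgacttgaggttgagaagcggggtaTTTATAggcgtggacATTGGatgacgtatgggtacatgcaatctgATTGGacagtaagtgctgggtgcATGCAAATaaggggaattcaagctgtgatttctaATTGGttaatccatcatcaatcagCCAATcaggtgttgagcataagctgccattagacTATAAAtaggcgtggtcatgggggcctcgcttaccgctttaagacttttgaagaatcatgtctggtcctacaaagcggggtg

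The somatic counterparts are H1f4, at chr13:23622509-23622808 (minus strand), and the divergent pair of H2bc12, at chr13:22035571-22035870 (plus strand), and H2ac12, at chr13:22035594-22035893 (minus strand). The windows of H2bc12 and H2ac12 overlap, since the genes start 177 bp apart and run in opposite directions, so some motifs are counted for both.
H1f4: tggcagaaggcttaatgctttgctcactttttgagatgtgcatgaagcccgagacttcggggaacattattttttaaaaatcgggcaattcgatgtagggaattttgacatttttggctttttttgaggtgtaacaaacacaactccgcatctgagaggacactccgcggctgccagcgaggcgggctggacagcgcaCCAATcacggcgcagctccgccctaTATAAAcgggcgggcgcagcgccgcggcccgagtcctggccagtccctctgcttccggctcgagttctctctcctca
H2bc12: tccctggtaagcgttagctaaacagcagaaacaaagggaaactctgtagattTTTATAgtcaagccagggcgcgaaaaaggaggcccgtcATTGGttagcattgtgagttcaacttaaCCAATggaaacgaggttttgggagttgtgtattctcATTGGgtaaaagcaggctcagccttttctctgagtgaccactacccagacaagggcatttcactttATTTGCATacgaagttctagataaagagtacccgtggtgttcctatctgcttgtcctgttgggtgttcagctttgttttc
H2ac12: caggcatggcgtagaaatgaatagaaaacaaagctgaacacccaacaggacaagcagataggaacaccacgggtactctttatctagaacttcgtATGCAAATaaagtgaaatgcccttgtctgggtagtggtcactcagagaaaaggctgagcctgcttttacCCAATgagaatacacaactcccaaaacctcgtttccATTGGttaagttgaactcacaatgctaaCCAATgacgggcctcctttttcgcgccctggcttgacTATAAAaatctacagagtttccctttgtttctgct

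Promoters of an H3 gene and of 2 H4 genes are added because the motif content of H4 differed from that of the other classes. They are H3c2, at chr13:23752095-23752394 (plus strand), H4c9, at chr13:22041313-22041612 (minus strand), and H4c17, at chr13:21811496-21811795 (plus strand).
H3c2: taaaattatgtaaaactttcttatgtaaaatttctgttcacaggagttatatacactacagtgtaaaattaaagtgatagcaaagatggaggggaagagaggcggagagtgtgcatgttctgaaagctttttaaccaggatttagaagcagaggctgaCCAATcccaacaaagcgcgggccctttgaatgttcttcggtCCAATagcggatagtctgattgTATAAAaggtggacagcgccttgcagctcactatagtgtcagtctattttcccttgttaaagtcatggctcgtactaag
H4c9: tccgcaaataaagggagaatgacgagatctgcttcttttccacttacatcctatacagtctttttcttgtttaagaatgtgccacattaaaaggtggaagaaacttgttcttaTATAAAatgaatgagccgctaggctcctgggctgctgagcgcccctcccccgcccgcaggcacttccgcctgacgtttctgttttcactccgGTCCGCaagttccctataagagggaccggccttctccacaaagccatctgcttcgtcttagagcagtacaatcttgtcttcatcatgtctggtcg
H4c17: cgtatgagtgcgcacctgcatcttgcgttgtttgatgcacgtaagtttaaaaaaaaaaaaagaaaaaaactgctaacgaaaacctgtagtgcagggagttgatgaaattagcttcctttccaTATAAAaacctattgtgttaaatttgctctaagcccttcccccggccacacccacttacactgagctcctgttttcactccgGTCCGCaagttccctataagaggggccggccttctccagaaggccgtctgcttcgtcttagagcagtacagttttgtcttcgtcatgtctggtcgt

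Nearly every histone gene lay at an accessible region. With 500 bp added on either side, 66 of 67 genes (98.5%, interval 92.0 to 100) met at least 1 peak, against 67.9% of all protein-coding genes. The exception was H1f6, whose nearest peak began 897 bp away and belonged to its neighbour H4c3. At the other side of the 500 bp limit, H2ac1 was counted only through a peak 436 bp before its start, inside the neighbouring gene H2bc1. All 18 H2A, 18 H2B, 12 H3 and 13 H4 genes met a peak, as did 5 of 6 H1 genes. On chromosome 13 the count was 53 of 54, and on chromosomes 3, 11 and 6 it was 10 of 10, 2 of 2 and 1 of 1.

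Most protein-coding genes are longer than histone genes and offer more ground for a peak. The median length was 492 bp for the histone genes and 17169 bp for all protein-coding genes. Among the 1516 other protein-coding genes of 1000 bp or less, whose median length was 933 bp, 63 (4.16%) met a peak. Olfactory receptor genes (Olfr) made up 783 of these and met a peak in 7 cases; of the remaining 733 short genes, 56 (7.64%) did. Of the 61 histone genes of 1000 bp or less, 60 met a peak.

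Start sites gave a sharper division. A start site was known for 62 histone genes, all but H2bc21, H4c14, H3c7, H2bc4 and H3c1, and it lay inside a peak in 59 (95.2%, interval 86.5 to 99.0), against 53.4% of the 17492 protein-coding genes with a known start. The 3 genes whose start lay outside every peak were H1f6, H2ac1 and H2bc1, the testis variants. All 59 other histone genes with a known start had it inside a peak. The only peak at H2bc1 and H2ac1, from 23933778 to 23934001 on chromosome 13, was 224 bp wide and covered 51.9% of H2bc1 but neither start. H1f6 lies from 23695811 to 23696545, among somatic genes that had wide peaks: H2bc4 on one side met peaks of 2399 and 931 bp, and H4c3 on the other met 1 of 1926 bp. H2bc1 and H2ac1 stand alone at the far end of the cluster, from 23933725 to 23934913, beyond 4 solute carrier genes that met no peak.

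**Figure D1:**
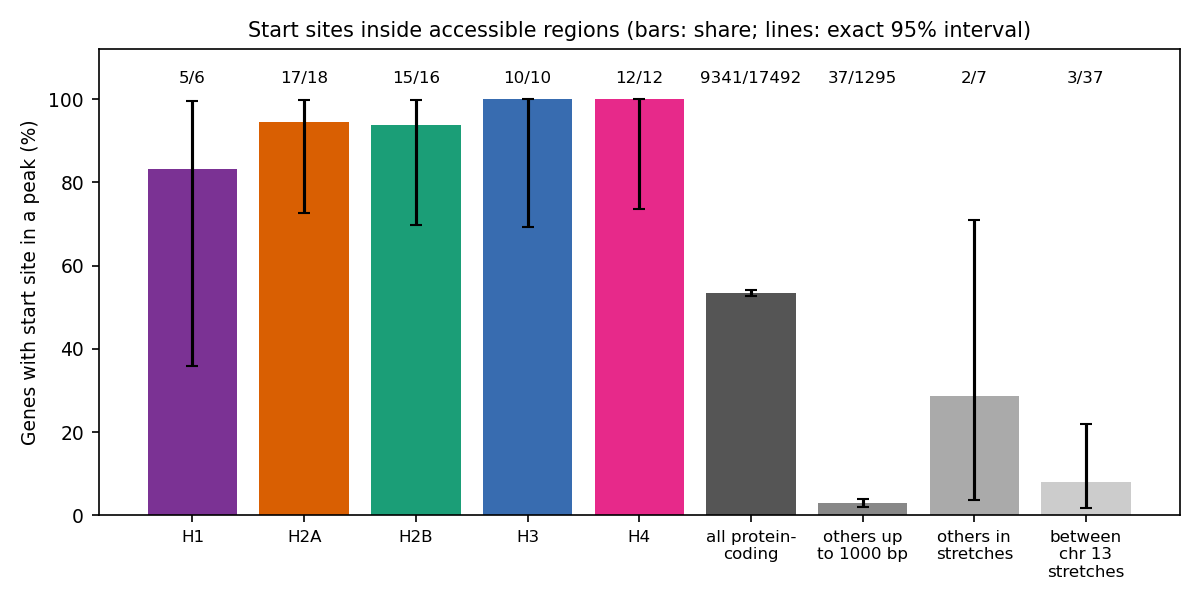
Share of genes whose annotated start site lies in a peak (percent, bars, with exact 95% intervals as lines and counts above), for the 5 histone classes, all protein-coding genes, other protein-coding genes of 1000 bp or less, other protein-coding genes inside the histone stretches, and protein-coding genes between the 2 stretches of chromosome 13. H3 and H4 are at 10 of 10 and 12 of 12, whereas other short genes are at 37 of 1295.

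Peaks covered not only the starts but most of the gene bodies. Of the 67 histone genes, 47 (70.1%) lay wholly inside peaks, compared with 0.471% of all protein-coding genes. That background amounts to 103 genes, the 47 histone genes included. Among the 1516 others of 1000 bp or less, 7 (0.462%) lay wholly inside peaks. All 13 H4 genes were covered from end to end, with 15 of 18 H2A, 9 of 18 H2B, 6 of 12 H3 and 4 of 6 H1 genes. A further 18 genes were partly covered, of which 12 were of 1000 bp or less. The lowest coverage among those 12 was 51.9%, at H2bc1, followed by 60.4% at H1f1 and 70.4% at H3c3.

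A total of 50 distinct peaks met the 67 genes. Their median width was 1752 bp (quartiles 967.75 and 2221.75), compared with 587 bp over the whole list and 713 bp over the 41261 peaks in windows of protein-coding genes. Of the 50, 45 were wider than the median of the list, and 17 were of 2000 bp or more, a width reached by 4.94% of all peaks. Peaks over start sites had a median of 1920 bp for histone genes (n = 42) and 1348 bp for all protein-coding genes (n = 8823). Where a start-site peak met a single histone gene, its median width was 1467 bp (n = 22), and where it met 2 or 3 of them it was 2232.5 bp (n = 20). A wider peak can reach more genes, so width and number are not independent.

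**Figure D2:**
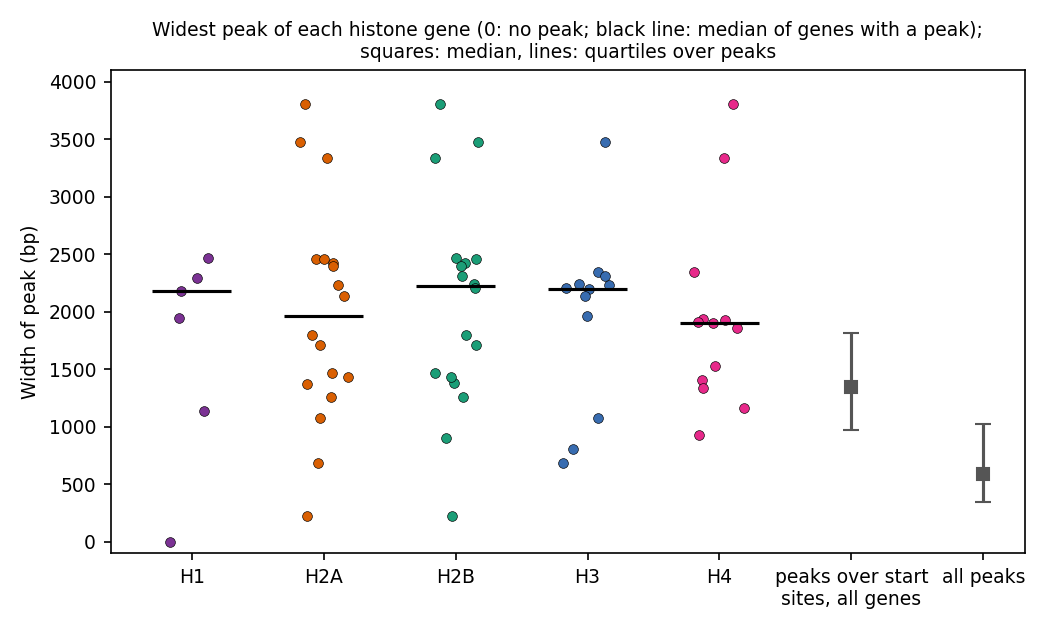
Width in bp of the widest peak of each histone gene, as 1 point per gene by class (0 for H1f6, which met none), with the median of genes with a peak as a black line; squares and lines give the median and quartiles of peaks over all protein-coding start sites and of all peaks. Class medians run from 1906 bp for H4 to 2220 bp for H2B, with a shared peak counted for each gene. The 1348 bp of start-site peaks in general is over distinct peaks, for which the histone median is 1920 bp.

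Peak sharing was common: 46 of 67 genes had a peak that also met another histone gene. Of the 50 peaks, 29 met 1 gene, 17 met 2 and 4 met 3. The 3 widest peaks of chromosome 13 each held genes of 3 kinds. The first, of 3809 bp from 21831084 to 21834892, met H4c18, H2ac24 and H4bc24. The second, of 3478 bp from 21714669 to 21718146, met H2bc13, H2ac13 and H3c10. The third, of 3338 bp from 21809106 to 21812443, met H2bc23, H2ac23 and H4c17. After these came a peak of 2467 bp shared by H1f4 and by one of the start sites of H2bc6.

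Of the 50 distinct peaks, 37 were of 1000 bp or more, a width reached by 26.0% of all peaks. By gene, where a shared peak counts for each gene it met, 7 of 66 genes had no peak of 1000 bp or more. Besides the testis pair, these were H2ac4, with a peak of 663 bp over it, and H3c2, with 688 bp. The others were H3c4 with 806 bp, H2bu2 with 901 bp and H4c2 with 932 bp. The H3c2 peak came within 500 bp of H2ac4 but did not touch it. H2ac4 and H3c2 lie 752 bp apart from 23751088 to 23752840, and H4c2 follows within the same part of chromosome 13. The neighbouring H3c1 and H4c1 shared a peak of 2349 bp, so narrow and wide peaks alternated within a short distance.

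H2A and H2B genes often lie head to head and share the stretch between their starts. Among histone genes under 500 bp apart there were 13 pairs, of which 12 joined an H2A with an H2B gene at a median distance of 209.5 bp. All 12 had a peak in reach of both genes. In 11 of the 12 a single peak bridged the gap, and the exception was the testis pair H2bc1 and H2ac1, at 280 bp. For example, the peak at H2ac12 and H2bc12 (1707 bp), whose shared promoter is printed above, enclosed both genes completely. So did the peaks at H2ac15 and H2bc15 (1797 bp), H2ac11 and H2bc11 (2423 bp), H2bc13 and H2ac13, H2ac8 and H2bc8 (1262 bp), and H2bc7 and H2ac7 (1429 bp). The remaining close pair, H2ac21 and H2ac20 on chromosome 3, lie end to end 58 bp apart and were enclosed by a peak of 2456 bp.

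Peaks over histone start sites reached a median of 895 bp upstream and 751 bp downstream (n = 59), against 619 and 694 bp over all protein-coding genes (n = 9043). Reach was further downstream than upstream in 28 of these 59 histone genes (47.5%). It was so for 5143 of the 9043 (56.9%) and for 13 of 37 other protein-coding genes of 1000 bp or less (35.1%). Peaks of H1 genes reached a median of 546 bp upstream and 1729 bp downstream (n = 5), and 4 of the 5 reached further downstream. Those of H1f2, H1f3, H1f4 and H1f5 ran past the far end of the gene by 1005, 903, 1139 and 1046 bp. That of H1f1 reached 686 bp upstream and 449 bp downstream and stopped 295 bp short of the far end. H1f5 had only 101 bp of accessible ground before its start. The downstream part of the H1f4 peak includes a start site of H2bc6.

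Peaks of H3 genes had medians of 1092.5 bp upstream and 535 bp downstream (n = 10), but 4 of the 10 reached further downstream than upstream. These were H3c13 (528 bp upstream and 1778 bp downstream), H3c11 (780 and 1178 bp), H3c4 (302 and 503 bp) and H3c2 (274 and 413 bp). H2B peaks reached 1028 bp upstream and 732 bp downstream (n = 15), and only 3 of the 15 reached further downstream than upstream. H2A medians were nearly even, at 784 and 745 bp (n = 17), and 9 of the 17 reached further downstream. H4 medians were 902 and 859 bp (n = 12), although 8 of the 12 reached further downstream. Where a peak is shared, the reach on the side of the neighbour includes it. At H3c10, 2959 bp upstream take in H2ac13 and H2bc13, whereas H3c13 has its neighbour H2bc18 on the downstream side. Of the 55 histone genes of 1000 bp or less with the start in a peak, the peak passed the far end of the gene in 43 (78.2%), by a median of 287 bp over all 55. Among the 37 other protein-coding genes of 1000 bp or less with the start in a peak, it did so in 7 (18.9%), and the median peak ended 326 bp inside the gene. Median downstream reach was 745 bp for the 55 and 559 bp for the 37. Within the 1000 bp limit the histone genes were shorter, with a median of 487 bp against 933 bp for all others. The part of gene length in this contrast was not tested.

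**Figure D3:**
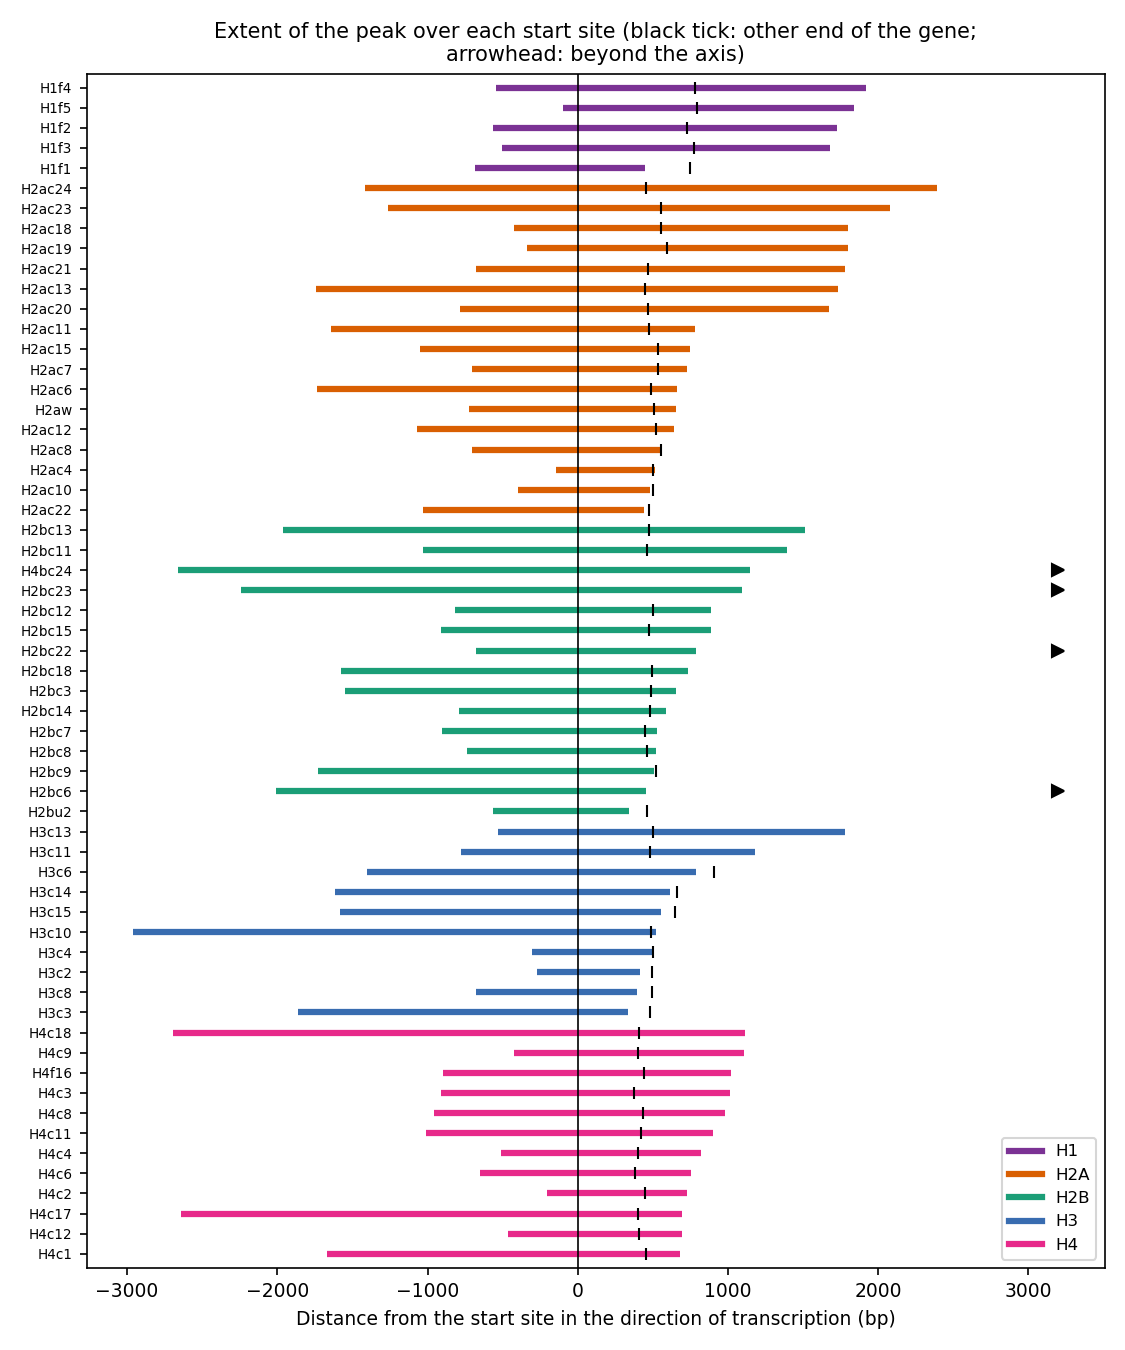
Extent of the peak over the start site of each of 59 histone genes, in bp along the direction of transcription, coloured by class; the vertical line is the start site, black ticks mark the far end of the gene and arrowheads genes that run past the axis. The lines of 4 of 5 H1 genes lean downstream and those of 6 of 10 H3 genes lean upstream, and all 12 H4 lines pass the tick. Over all protein-coding genes, 56.9% of start-site peaks reach further downstream.

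A gene could meet more than 1 peak, and 8 of 67 did, against 7756 of all 21887 protein-coding genes, most of which are longer. Among genes of 1000 bp or less, 4 of 61 histone genes and 3 of 1516 others did. H2bc22 met 3, of 1466, 699 and 566 bp, the last 2 at the far end of a transcript span of 14079 bp. H2bc6, with a span of 37455 bp and 2 annotated start sites, had a peak at each, of 2400 and 2467 bp. H2bc4 met peaks of 2399 and 931 bp, and H2bc23 met 206 and 3338 bp. In the remaining 4, H2ac10, H2ac4, H4c1 and H3c15, a second peak lay within 500 bp of a gene of 1000 bp or less. The long spans belong to 6 genes over 1000 bp, all annotated as H2B, and their median coverage by peaks was 25.8%.

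The clusters differed in what lay between the histone genes. Joining histone genes up to 250 kb apart gave 2 stretches on chromosome 13 and 1 on chromosome 3, beside the pair on chromosome 11 and the single gene on chromosome 6. The first chromosome 13 stretch, 328 kb from 21715711 to 22043658, held 23 histone genes and 40 peaks, of which 16 met a histone gene and 24 did not. The second, 404 kb from 23531044 to 23934913, held 31 histone genes and 30 peaks, of which 25 met a histone gene. In the first stretch, peaks covered 53.3% of the histone windows and 7.3% of the other ground; in the second, 38.4% and 1.98%. The windows of the second stretch include the long span of H2bc6.

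Of the 24 other peaks of the first stretch, 12 lay within 500 bp of a tRNA gene, 2 of a protein-coding gene (Zfp184 and Prss16) and 1 of a lncRNA gene. The tRNA peaks had a median width of 629 bp, from 335 to 1823 bp. The stretch holds 31 tRNA genes, and 14 of them (45.2%, interval 27.3 to 64.0) met a peak, compared with 57.3% of the other 377 tRNA genes of the table. tRNA genes are transcribed by RNA polymerase III and are also present in many copies. Of the 5 other peaks of the second stretch, 2 lay at Hfe, an iron regulator gene.

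Genes between and beside the histone genes were counted in the same window. Of the 10 other protein-coding genes that overlap the stretches, 4 met a peak (40.0%, interval 12.2 to 73.8), beside 67.9% of all protein-coding genes. The 4 were Trim17, Zfp184, Prss16 and Hfe. Of the 7 known starts, 2 lay in a peak, beside 53.4%. At Trim17, which overlaps H2aw, the count includes the H2aw peak. Pom121l2, Trim38 and the solute carrier genes Slc17a1, Slc17a2, Slc17a3 and Slc17a4 met none. The 1490 kb between the 2 chromosome 13 stretches held 34 peaks, or 2.29 per 100 kb, against 12.2 and 7.43 per 100 kb in the stretches. It holds 41 protein-coding genes, of which 4 met a peak (9.76%, interval 2.72 to 23.1). None of the 36 vomeronasal receptor genes (Vmn1r) met a peak (0), whereas 4 of the 5 others did (Zfp322a, Abt1, Btn1a1 and Btn2a2).

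**Figure D4:**
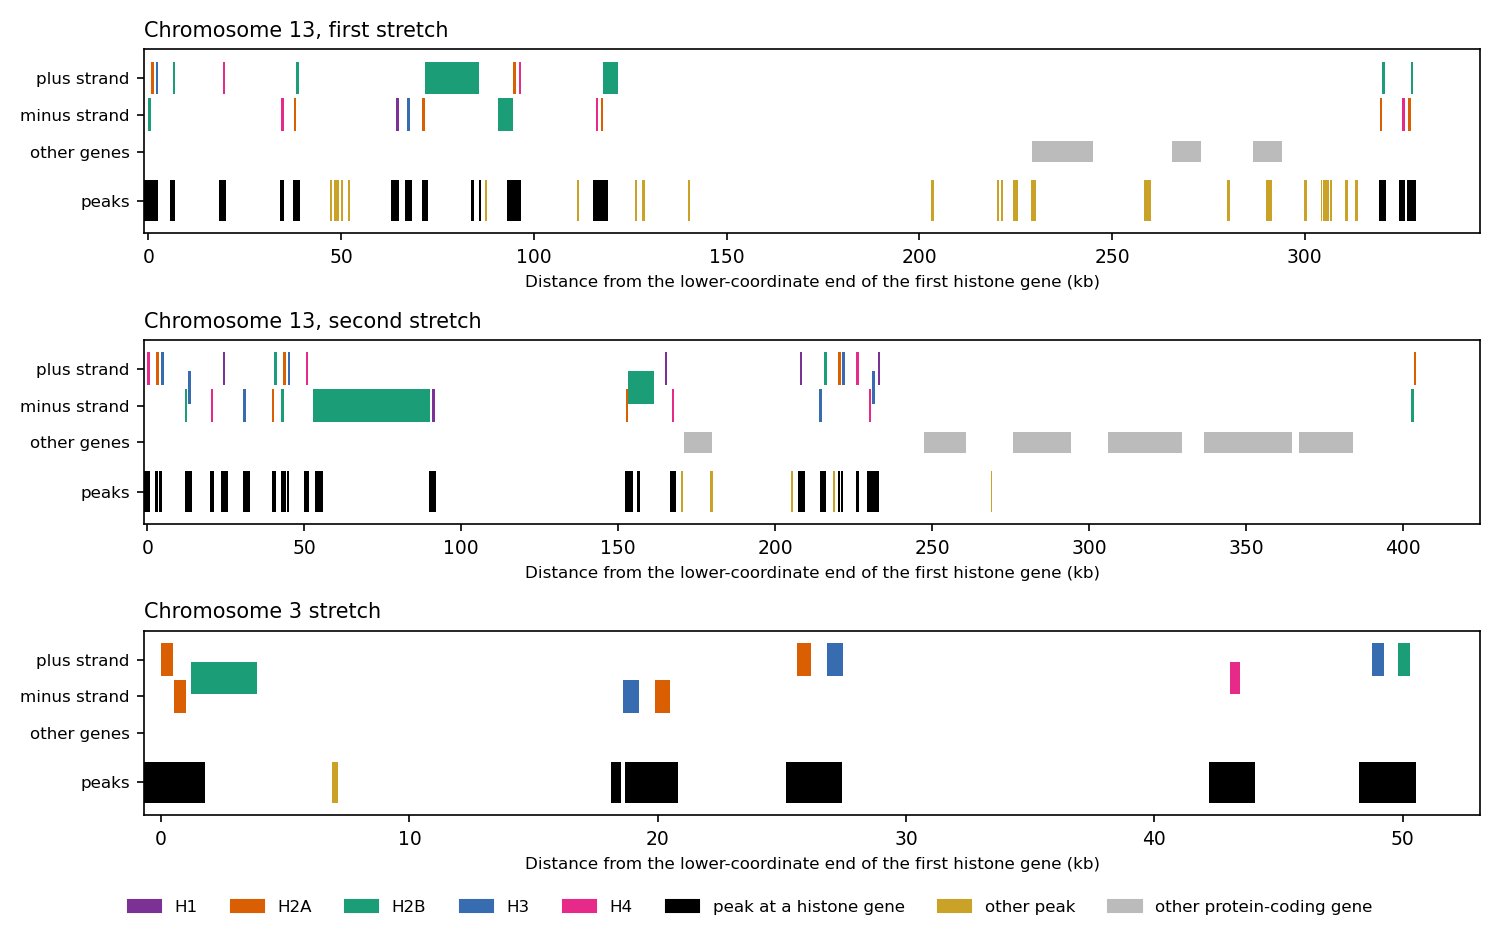
Histone genes (coloured by class, at mid-height where the strand was not known), other protein-coding genes (grey) and peaks (black at a histone gene, ochre elsewhere) along the 2 stretches of chromosome 13 and that of chromosome 3, in kb from the first histone gene; genes too short to see are drawn slightly widened. Ochre peaks gather in the middle of the first stretch, whereas the second stretch has 5 and the chromosome 3 stretch 1.

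On chromosome 3, from 96219885 to 96270192, 10 histone genes met 6 peaks with a median width of 2182 bp. A peak of 2456 bp took in H2ac21, H2ac20 and the start of the span of H2bc21. The pair H3c15 and H2ac19 met a peak of 2136 bp, and H3c15 also met 1 of 401 bp on its far side. H2ac18 and H3c14, which form a mirror image of that pair, met a peak of 2228 bp. H4c14 had its own peak of 1855 bp, and H3c13 and H2bc18 shared 1 of 2307 bp. On chromosome 11, H2bu2 met a peak of 901 bp that covered 73.6% of it, and H2aw lay wholly inside a peak of 1375 bp. The single chromosome 6 gene, H4f16, lay wholly inside a peak of 1914 bp.

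Pseudogenes inside the clusters were covered as well. H2bu1-ps on chromosome 11, and H2ac14 and H2ac5-ps on chromosome 13, each lay wholly inside a peak that also met a histone gene (1375, 1379 and 2203 bp). H2af-ps2, a relative on chromosome 13 at 51200084 to 51203066, outside the clusters, met no peak.

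Copies so alike that short reads may not be placed with certainty are part of this family. The 300 bp promoters were compared by the longest run of identical bases on either strand, which does not depend on where the start site was annotated, leaving out windows that overlap in the genome. The promoters of H2bc23 and H4bc24 were identical, and those of H4c17 and H4c18 shared a run of 285 bases. H2ac23 and H2ac24 shared 200 bases. These genes belong to 2 copies of a 3-gene unit, at peaks of 3338 and 3809 bp. On chromosome 3, H3c15 and H3c14 shared 231 bases, and H2ac19 and H2ac18 shared 219. H4c11 and H4c12 shared 72. In all, 12 genes had a run of at least 50 bases in common with another histone promoter, and the longest run in any other pair compared was 40 bases, between H2ac23 and H2ac7. The handling of reads with several matches is not stated in the labels. The sorted cells also carry a reporter that encodes an H2B protein, and reads from its coding part could resemble those of H2B genes. The part of either in the peaks was not tested.

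Each of the 4 motifs searched was held by a larger share of histone promoters than of all protein-coding promoters. Sequences were found for 62 of the 67 genes (63 promoters, 2 of them for H2bc6). TATAAA was held by 55.6% of them and by 12.6% of the 21263 promoters of all protein-coding genes, and CCAAT by 85.7% against 38.2%. A match counted anywhere in the window, for TATAAA also at places such as -250 in H4c6 and 42 in H4c1. All 6 H1, 18 H2A, 17 H2B and 10 H3 promoters held CCAAT, whereas 3 of 12 H4 promoters did. The octamer stood in 7 of 18 H2A and 7 of 17 H2B promoters and in none (0) of the H1, H3 and H4 promoters, against 1.66% of all promoters. GTCCGC stood in 9 of 12 H4, 7 of 18 H2A, 3 of 17 H2B, 1 of 10 H3 and none (0) of 6 H1 promoters. It was held by 12.1% of all promoters and by 19.0% of those whose start lay in a peak. In 6 of the 9 H4 promoters its first base was at position -45 or -46, counting the start site as 1. Both printed H4 promoters, H4c9 at -45 and H4c17 at -46, are among them. At H2ac7, H2ac8, H2ac15 and H2ac23 the GTCCGC match, at -213, -235, -233 and -218, lay inside the neighbouring H2B gene. At H2bc7 and at 1 start of H2bc6 it lay past the gene's own start, at 35 and 32. H2A and H2B promoters of a divergent pair share bases, so their counts are not independent.

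CpG numbered a median of 11 per histone promoter (3 to 41), against 13 over all protein-coding promoters and 22 over those whose start lay in a peak. The GC content was 45.3%, 56.3% and 61.7% in the same order. The ratio of CpG observed to that given by the C and G content had medians of 0.746, 0.567 and 0.782. By this ratio the histone promoters lay above all protein-coding promoters and near those with the start in a peak, while their count of CpG was below both. The high end belonged to chromosome 3, with 41 CpG in H2ac18 and 36 in H2ac19, and the low end to H2bc15 and H2bc3 with 3 each, whose starts also lay in peaks. The testis promoters printed above were not set apart by these features. They held 10 CpG (H1f6), 7 (H2bc1) and 8 (H2ac1), a CCAAT box each, and an octamer at H2bc1 and H2ac1. H1f6 lacked TATAAA, as did H1f2, whose start lay in a peak, while H1f4 held it at -27. A match describes the letters in the window and says nothing of a factor being bound.

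**Figure D5:**
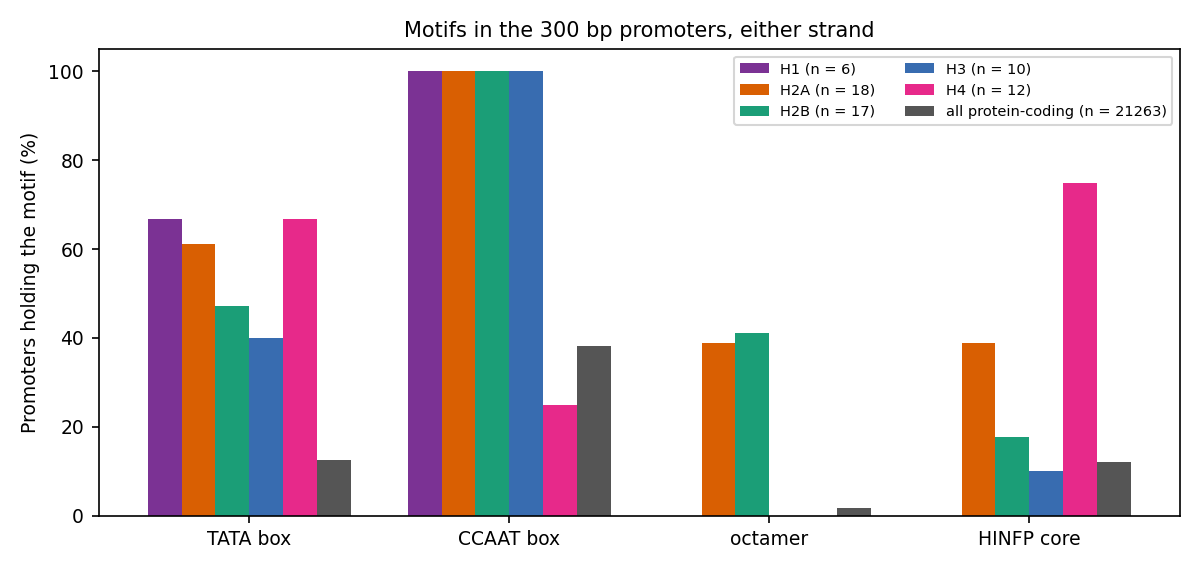
Percent of promoters with each of 4 motifs on either strand, for the 5 histone classes and for all protein-coding promoters (grey), with the number of promoters in the key. CCAAT is in every promoter of H1, H2A, H2B and H3, and the HINFP core is highest in H4, in 9 of 12.

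The genes that switch on and process histone messages were mostly accessible. Of 22 such genes, 21 met a peak, beside 67.9% of all protein-coding genes, and 17 of 18 known starts lay in one, beside 53.4%. The median width was 1571 bp. The transcription factor gene Npat had a start-site peak of 2085 bp, and Pou2f1, which encodes OCT1, had 1 of 3312 bp. Peaks over the starts of Slbp, Casp8ap2 (FLASH, a partner of NPAT) and Lsm11, a part of the U7 particle that trims the message, were 1251, 1137 and 2331 bp wide. Cdk2 and Ccne1 had start-site peaks of 1571 and 1658 bp. The only gene of the list without a peak was Srrt.

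Replication-independent histone genes, which are expressed outside DNA replication as well, met a peak in 10 of 12 cases, again beside 67.9%. The 2 without were Macroh2a1 and the oocyte linker histone gene H1f8. Of their 11 known starts, 7 lay in a peak, a share near the 53.4% of all protein-coding genes. The median width was 1453 bp, and the 7 include the starts of H3f3a (1650 bp), H3f3b (1237 bp), H2az1 (1453 bp) and Cenpa (804 bp). The starts of the linker histone genes H1f0 and H1f10 did not, although both genes met 2 peaks.

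Marker genes were looked at in the same window. Over all protein-coding genes, 67.9% met a peak and 53.4% of known starts lay in one. All 10 genes of hair follicle stem cells and basal keratinocytes met a peak, and 4 of 5 known starts lay in one, the exception being Krt14. Among markers of other skin cells, 3 of 4 melanocyte, 1 of 4 immune, 3 of 3 endothelial and 3 of 4 fibroblast genes met a peak, Pmel in part through that of its neighbour Cdk2. In the same order, known starts in a peak were 1 of 2 (Dct), 1 of 4 (Cd68), 1 of 1 (Kdr) and 0 of 3. The list gives no level, so the share of other cells, or of cells copying DNA, in the histone peaks was not tested.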

How the data were processed

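ATAC-seq was done on sorted hair follicle stem cells of 2 genotypes, with 1 library each in 2 runs. The authors deposited 1 list of regions, whose values are start and end positions in bp (mm10, per the labels); no other measure is in it. The tools named in the submitters' processing notes are Bowtie2, MACS2 and bedtools; their versions and settings, any pooling and read filters are not stated there. Columns of per-sample values left unused numbered 0. Starts were made 1-based, and a gene met a peak when they shared 1 bp.

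Genes came from a RefSeq table of GRCm38.p6, the assembly of mm10, and start sites and promoters from a RefSeq promoter table, which lacked 5 of the 67 histone genes. Older symbols were matched for membership, where current symbols alone had been planned, because only they reach chromosomes 11 and 6. Members, lists and comparisons were chosen with earlier results of these data known. Named genes were all members outside chromosome 13 and, on it, those without a peak, the 10 with the widest peaks, those with 2 or more, the H1 genes and the testis genes; others serve as examples chosen after their values were seen. Overlaps were checked on simulated regions. Python 3.11.15, pandas 2.3.3 and scipy 1.17.1 were used.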

Additional observations from a re-analysis of the deposited data

How the results depend on the processing

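The count of histone genes with a peak was 65 of 67 with 0 bp on either side, 67 with 1000 or 2000 bp, 65 with at least 200 bp shared, and 64 with only peaks of at least 300 bp or at least as wide as the list median. It was 62 of 63 with current symbols only, 56 with the peak midpoint inside the window and 46 with each peak given to 1 gene. Over all protein-coding genes, the share with a peak stayed between 59.5% and 70.0% in those of the same settings where it was computed. Of 78 alternatives over these results, 75 stayed within 1.5 times the value reported. Beyond it, close pairs with a shared peak numbered 23 of 24 under 1000 bp, in place of 13 of 13, and peaks away from histone genes numbered 11 when genes were joined up to 50 kb, in place of 30. The background share was 4.16% for genes of 1000 bp or less, an alternative chosen after seeing the data. It was 58.8% for genes no longer than the longest histone gene. Membership by current symbols only had been planned, with older symbols as an alternative. Older symbols were made the main setting after seeing the data. No paired analysis was possible because the runs share 1 list, and leaving out a library was not possible for the same reason. The depth is unknown, so weaker accessibility at H1f6, H2bc1 and H2ac1 would not be seen in the list.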
